A study of Mus musculus with 5 samples.

Results

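The 8 Krüppel-like factor genes Klf2, Klf3, Klf4, Klf6, Klf7, Klf10, Klf12 and Klf13 were followed in sorted T cells of the mouse spleen. They were taken by gene name from a table of 35275 genes that holds 17 Klf genes in all, and all 8 were among the 13298 genes that passed the filter on low reads. RNA was sequenced in 5 libraries: CD4+ regulatory T cells (CD4 Treg, 2 libraries), CD8+ regulatory T cells (CD8 Treg, 1 library) and cells named CD49lo (2 libraries). The mice of every group were wild type, of the C57BL/6 strain and 3 months old, and no treatment is named. Before the sort, CD8 cells of the spleen were enriched, and total RNA was taken from the sorted cells. The series compares both regulatory populations with CD8+ effector-like cells, and CD49lo is the remaining group. The labels name neither the sort markers nor the animals behind each replicate, so p-values measure the spread between these libraries, which may be technical.

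Krüppel-like factors are transcription factors that bind CACCC and GC-rich DNA through zinc fingers at the end of the protein. One branch (KLF2, KLF4, KLF6 and KLF7 here) carries activation domains, another (KLF3 and KLF12) recruits the corepressor CtBP, and the last (KLF10 and KLF13) binds the corepressor Sin3A. In T cells the family is best known through KLF2, which keeps resting cells quiescent and supports the egress receptor S1PR1, and through KLF4, a brake on CD8 T cell division.

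The libraries held 5441444 to 8354971 reads in genes. Values are RPKM, which divide reads by the length of the gene and the size of the library, so levels of different genes can be compared per length. Cd4 and Foxp3 were high in CD4 Treg alone (201 and 219 RPKM for Cd4, 146 in both libraries for Foxp3), and Cd8a was at 187 to 255 RPKM in the other 3 libraries. Ribosomal protein genes took 12.6% of reads in the CD8 Treg library and 8.23% to 9.42% elsewhere. The gene Gm26917 took 6.86% of reads in CD8 Treg and 3.33% to 4.16% elsewhere, and the part of either in the CD8 Treg results was not tested. Xist was at 35.5 and 27.2 RPKM in CD4 Treg and at most 0.0834 in the rest, while the Y-linked Ddx3y was at most 0.0701 in CD4 Treg and at least 18.3 in the rest. Sex and the CD4 Treg group therefore cannot be told apart in any comparison with CD4 Treg. Markers of other cell types were present as well, and their values are given beside the genes they move with.

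The promoters of Klf2, Klf4 and Klf13 are shown because these were the members that passed the test in at least 1 comparison. The sequences are from RefSeq (GRCm38.p6, the assembly of mm10) and run 5′ to 3′ on the strand of the gene, up to the base before the start site or the first base of the gene as the table gives it. Capitals mark every match to the GC box GGGCGG, the CACCC box CACCC and the MEF2 pattern on either strand, in the printed stretch. GC and CACCC boxes are the kind of DNA that the family itself and the related Sp factors bind, and MEF2 factors are known activators of Klf2.
Klf2, chr8:72318812-72319032, plus strand: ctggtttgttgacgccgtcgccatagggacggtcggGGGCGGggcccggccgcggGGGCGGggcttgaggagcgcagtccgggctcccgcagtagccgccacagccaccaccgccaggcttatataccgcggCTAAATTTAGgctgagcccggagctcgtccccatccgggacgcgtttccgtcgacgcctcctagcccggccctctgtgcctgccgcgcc
Klf4, chr4:55532476-55532725, minus strand: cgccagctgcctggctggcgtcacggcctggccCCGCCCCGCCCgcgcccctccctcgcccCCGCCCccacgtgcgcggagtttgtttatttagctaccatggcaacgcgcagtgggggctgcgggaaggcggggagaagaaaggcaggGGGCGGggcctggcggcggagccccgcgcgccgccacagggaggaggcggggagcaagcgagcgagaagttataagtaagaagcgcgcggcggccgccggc
Klf13, chr7:63938916-63939165, minus strand: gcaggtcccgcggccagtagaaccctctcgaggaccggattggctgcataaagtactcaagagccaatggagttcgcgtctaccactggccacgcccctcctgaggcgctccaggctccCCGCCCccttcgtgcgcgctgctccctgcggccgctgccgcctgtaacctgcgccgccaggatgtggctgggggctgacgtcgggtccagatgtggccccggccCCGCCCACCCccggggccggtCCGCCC

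The table of promoters held 7 of the 8 members, all except Klf10. In the 250 bases before the start site, GC boxes numbered 2 in Klf2, 4 in Klf4, 3 in Klf13, 6 in Klf3, 1 in Klf6 and 1 in Klf7, with 0 in Klf12. A GC box occurred in 32.7% of all 32851 promoter windows. The CACCC box, found in 52.0% of windows, occurred in Klf2, Klf3, Klf7, Klf12 and Klf13 and had no match in Klf4 and Klf6. The MEF2 pattern was matched in Klf2 alone among the members, from base -118 to -109, and in 3.2% of all windows. The GC content was 71.2%, 74% and 71.6% in Klf2, Klf4 and Klf13, against a median of 52.4% over all windows, and 48% in Klf12. Both strands were searched. In Klf4 the first GC boxes overlap by 1 base, in Klf13 a CACCC box overlaps a GC box by 1 base, and the CACCC box of Klf2, from -19 to -15, lies beyond the printed stretch. An E-box (CACGTG, 6.02% of windows) was matched in Klf4 and Klf6, a CCAAT box (33.8%) in Klf6 and Klf13, and a TATA box (TATAAA, 12.4%) in Klf12. The FOXO (GTAAACA, 3.17%), CRE (1.55%) and AP-1 (TGANTCA, 6.75%) patterns had no match in the 7 windows. Matches describe these letters in this window and not sites in use.

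**Figure D1:**
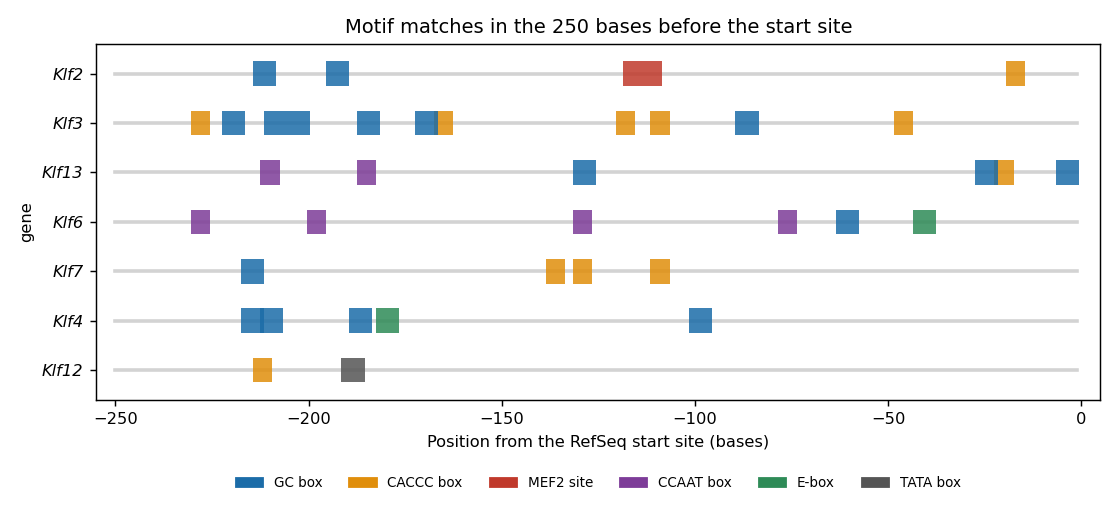
Matches to 6 motifs (coloured blocks) in the 250 bases before the RefSeq start site of 7 members, with the distance from the start site in bases on the horizontal axis. GC boxes lie in every promoter but that of Klf12, and the MEF2 pattern lies in Klf2 alone.

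Klf2 was by far the most abundant member per length. On the log2(RPKM + 0.5) scale tested below, Klf4 differed most of the 8 members in each comparison. By the ratio of mean RPKM, Klf12, with 1 to 13 reads, differed more between CD49lo and CD4 Treg (3.64 against 2.63 for Klf4). Klf2 made up 53.3% and 54.6% of the summed RPKM of the 8 members in CD4 Treg, 60.8% in the CD8 Treg library, and 60.5% and 62.4% in CD49lo. Its level exceeded that of at least 98.2% of the tested genes in every library. Klf3, Klf13 and Klf6 followed, then Klf10 and Klf7, then Klf4 and last Klf12. The order was the same in all libraries except that Klf13 stood above Klf3 in CD4 Treg replicate 1 and Klf4 above Klf7 in CD49lo replicate 2. The gene length in the table was 0.206 and 0.266 of the annotated exon length (GENCODE M21) for Klf3 and Klf12, and at least 0.729 of it for the other 6. The place of Klf3 and Klf12 in this order therefore depends on the length used.

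**Figure D2:**
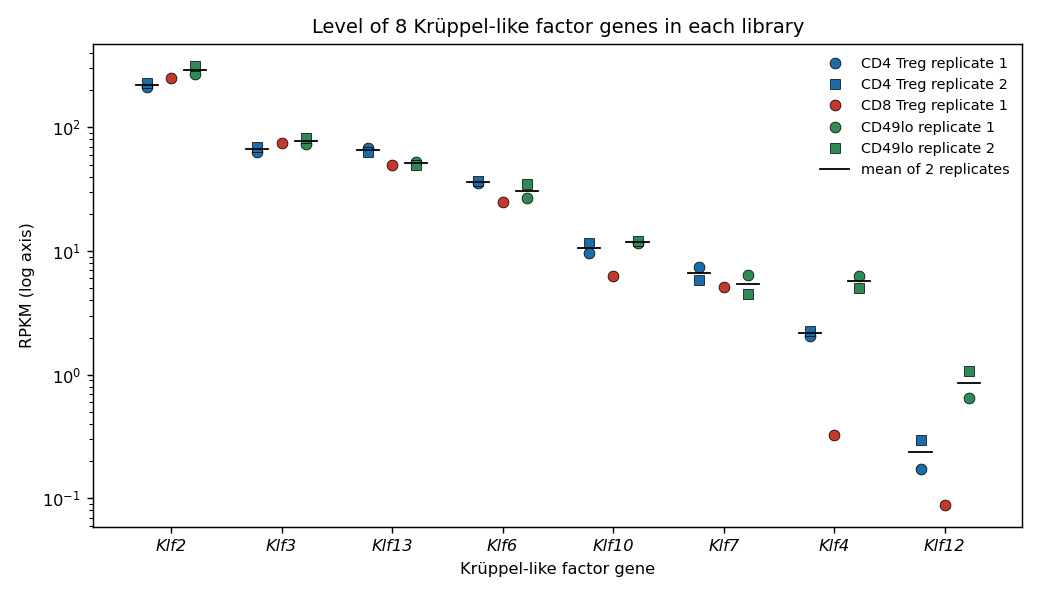
RPKM (log axis) of the 8 members in each of the 5 libraries, with colour for the population, symbol for the replicate and a bar for the mean of 2 replicates. Klf2 lies above 212 RPKM in all libraries, and the single CD8 Treg library lies far below the other populations for Klf4.

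Differences were tested on log2(RPKM + 0.5) with limma over all genes, with Benjamini-Hochberg adjustment over the 13298 genes tested, and a gene was called at an adjusted p under 0.05. The 3 comparisons share libraries and are not independent of each other, and the fit gives the lone CD8 Treg library the variance of the populations with 2 libraries. Between CD4 Treg and CD49lo 3 of 8 members were called, where 22.3% of all genes tested were called. Klf13 was higher in CD4 Treg (background 9.45% of genes higher), and Klf2 and Klf4 were lower (background 12.8% lower). Between CD8 Treg and CD49lo 1 member was called, Klf4, lower in CD8 Treg (background 5.3% in either direction and 3.59% lower). Between CD8 Treg and CD4 Treg it was again Klf4, lower in CD8 Treg (background 16.9% in either direction and 8.35% lower). The share of members called was 37.5%, 12.5% and 12.5% in this order. With 8 genes these shares rest on 1 to 3 calls, and 0 members were higher in CD8 Treg than in CD4 Treg (background 8.51%) or CD49lo (background 1.71%). At an unadjusted limma p under 0.05 the members numbered 3, 2 and 4 (background 33.7%, 19.2% and 29.6%). Scaled libraries of the 2 populations did not overlap for 6, 5 and 8 members, where 60.2%, 74.9% and 81.4% of all genes tested did not overlap. Of the 705 genes called between CD8 Treg and CD49lo, 32.3% were higher in the CD8 Treg library. The share was 20.6% of 826 without a scaling factor, 85.2% of 580 without a filter, 50.7% of 355 with 1 RPKM required in each library of a population, and 50.8% of 689 by limma-voom. Which direction held more calls thus depended on the setting.

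Leaving out any 1 library of CD4 Treg or CD49lo leaves 1 library in that population and 1 residual degree of freedom. Every member call between CD4 Treg and CD49lo and between CD8 Treg and CD4 Treg was lost in these fits. Against CD49lo, the call of Klf4 in CD8 Treg held only without CD4 Treg replicate 1. Fewer of all genes tested were called in each of these fits too, so the losses are not particular to the members. The log2 fold changes kept their sign. In CD4 Treg over CD49lo they ranged from -0.456 to -0.286 for Klf2, -1.34 to -1.01 for Klf4 and 0.323 to 0.439 for Klf13. In CD8 Treg, Klf4 ranged from -2.98 to -2.65 over CD49lo and from -1.68 to -1.60 over CD4 Treg.

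**Figure D3:**
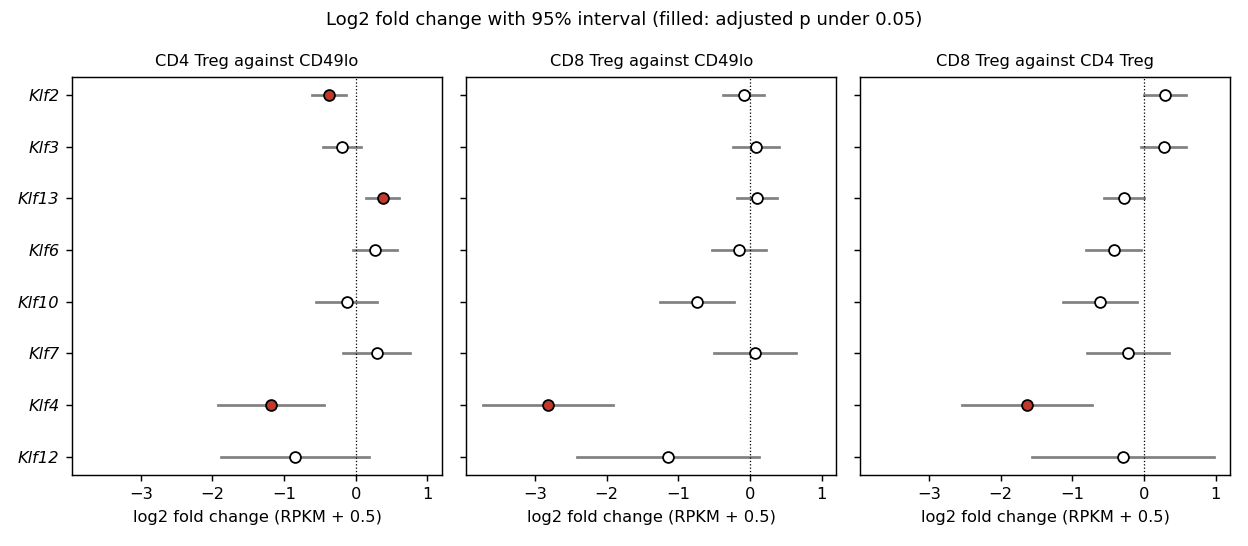
Log2 fold change on the RPKM + 0.5 scale (points) with its 95% interval (lines) for the 8 members in the 3 comparisons, filled where the adjusted p was under 0.05. Intervals are not adjusted for the number of genes, so some exclude 0 without a call. Klf4 lies at -1.18, -2.82 and -1.64 in the 3 panels.

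Klf4 (ENSMUSG00000003032, mm10 chromosome 4, 55527143 to 55532466, minus strand) encodes one of the reprogramming factors and restrains the cell cycle. It was at 2.08 and 2.24 RPKM in CD4 Treg (39 and 37 reads), 0.326 in the CD8 Treg library (6 reads) and 6.32 and 5.03 in CD49lo (160 and 100 reads). The 3 populations did not overlap, with CD49lo highest and CD8 Treg lowest. The 95% Poisson interval of the CD8 Treg value was 0.12 to 0.71 RPKM, which covers counting error only, and it lay below the interval of every other library. The mean was 17.4 times higher in CD49lo than in the CD8 Treg library, and 2.63 times higher in CD49lo than in CD4 Treg.

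On the fitted scale Klf4 fell by 2.82 ± 0.40 (log2, SE) in CD8 Treg relative to CD49lo (limma, adjusted p = 0.00484), a change larger in size than all but 0.669% of the tested genes. Relative to CD4 Treg it fell by 1.64 ± 0.40 (adjusted p = 0.0221). CD4 Treg was lower than CD49lo by 1.18 ± 0.33 (adjusted p = 0.0291). The CD8 Treg level is below the added 0.5 RPKM, so the fitted folds involving CD8 Treg understate the ratio of the levels. With limma-voom on the recovered reads the log2 fold changes of CD8 Treg were larger, -3.89 and -2.52, but no longer passed the test (adjusted p = 0.0638 against CD49lo and 0.192 against CD4 Treg). Both CD8 Treg comparisons of Klf4 rest on 6 reads in 1 library. The calls of CD4 Treg against CD49lo and of CD8 Treg against CD4 Treg were lost without a filter (limma, adjusted p = 0.0881 and 0.066). Both were also lost with 1 RPKM required in each library of a population (limma, adjusted p = 0.0613 and 0.0562).

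Transcripts of cells other than T cells varied between the same libraries. The 9 monocyte, macrophage and neutrophil markers in the table summed to 40.1 and 56.8 RPKM in CD4 Treg, 270.3 in the CD8 Treg library, and 518 and 577 in CD49lo. The defining genes Csf1r and Lyz2 were at 19.96 and 70.8 RPKM in CD8 Treg, and at most 1.95 and 4.2 in CD4 Treg. Of these 9 genes, 8 were lower in CD4 Treg than in CD49lo, 3 were lower in CD8 Treg than in CD49lo, and 7 were higher and 1 lower in CD8 Treg than in CD4 Treg. The gene lower in CD8 Treg than in CD4 Treg was Cebpb (14.3 RPKM against 41.6 and 37.5). Cebpb made up most of the CD4 Treg sum and was not called between CD4 Treg and CD49lo (44.1 and 40.2 RPKM in CD49lo). Klf4 was lower in CD8 Treg than in CD4 Treg, and the part of monocytes, macrophages and neutrophils in that difference was not tested. The 6 dendritic cell markers summed to 0.778 and 0.865, 8, and 41.7 and 43.4 RPKM in the order CD4 Treg, CD8 Treg, CD49lo. Of the dendritic genes, 4 were lower in CD4 Treg and 2 lower in CD8 Treg than in CD49lo. Clec9a was at 0 reads in CD8 Treg. The part of these cells in the Klf4 level of CD49lo was not tested, and a larger share of cells with the transcript cannot be told apart from more transcript per cell.

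The 10 cell cycle genes were highest in CD49lo, the population with the highest Klf4. They summed to 16 and 17.4 RPKM in CD4 Treg, 38.6 in the CD8 Treg library, and 256 and 165 in CD49lo. All 10 were lower in CD4 Treg than in CD49lo and 7 were lower in CD8 Treg, with a median log2 fold change of -3.11 and -2.20 (median of all genes tested -0.03 and -0.04). Mki67, the proliferation antigen, was at 9.97 RPKM in CD8 Treg, against 66 and 39.9 in CD49lo.

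**Figure D4:**
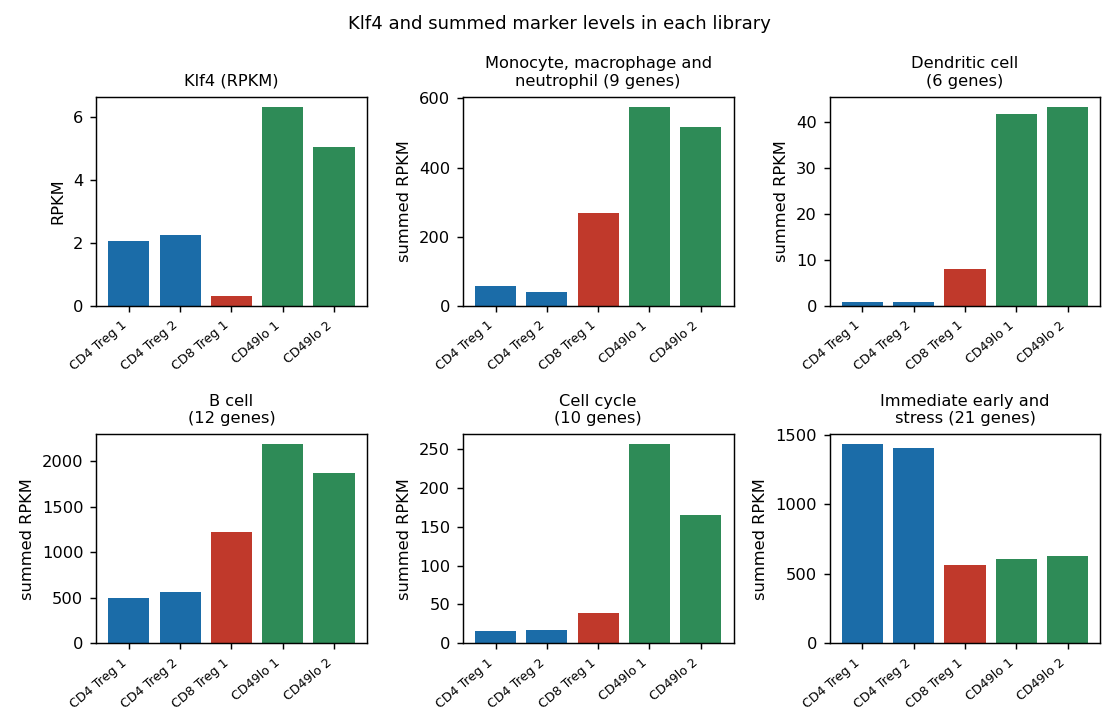
Klf4 (RPKM) and the summed RPKM of 5 fixed gene lists in each library, bars starting at 0 and coloured by population. Klf4 is lowest in CD8 Treg, where the myeloid and B cell sums stand between those of the other populations, and the immediate early sum is highest in CD4 Treg. In CD4 Treg most of the myeloid sum is Cebpb and most of the B cell sum is Ighm.

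Klf2 (ENSMUSG00000055148, chromosome 8, 72319033 to 72321656, plus strand), the quiescence and egress factor, was lower in CD4 Treg than in CD49lo. It stood at 212 and 229 RPKM in CD4 Treg, 251 in the CD8 Treg library, and 272 and 314 in CD49lo. CD4 Treg lay below both other populations, and after scaling CD8 Treg overlapped CD49lo. The log2 fold change of CD4 Treg over CD49lo was -0.38 ± 0.10 (SE, limma, adjusted p = 0.0287), a ratio of 1.3 on the fitted scale. Of the tested genes 48.2% changed by more. The call was lost without a filter (adjusted p = 0.157), with 1 RPKM required in each library of a population (0.0668), and with the variance prior on mean RPKM (0.0567). CD8 Treg did not pass against CD49lo (-0.09, 95% interval -0.37 to 0.20, adjusted p = 0.78) or against CD4 Treg (0.29, interval 0.00 to 0.58, adjusted p = 0.162).

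Genes known to act on KLF2 went in both directions. The list mixes activators of Klf2 with ubiquitin ligase genes, so no single direction was to be expected of it. Of 15 tested regulators of its transcription and stability, 3 were higher and 2 lower in CD4 Treg than in CD49lo (median log2 fold change -0.04, all genes -0.03). Foxo1, the forkhead factor that drives Klf2 in T cells, was at 64.6 and 62.1 RPKM in CD4 Treg, 31.9 in the CD8 Treg library, and 31.3 and 25.2 in CD49lo. Foxo1 was highest in CD4 Treg (log2 fold change 1.19 ± 0.13 over CD49lo, limma, adjusted p = 0.000201), where Klf2 was lowest. The part of Foxo1 in the Klf2 level was not tested. Foxo3 (0.66 ± 0.14, adjusted p = 0.00871) and the ubiquitin ligase gene Smurf1 (0.54 ± 0.13, adjusted p = 0.0164) were also higher.

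The MEF2 genes that were called were lower in CD4 Treg. Mef2a was at 10.3 and 11.5 RPKM in CD4 Treg, 23.4 in the CD8 Treg library, and 17.6 and 18.9 in CD49lo (-0.69 ± 0.13, adjusted p = 0.00435). Mef2c was at 0.125 and 0, 2.54, and 5.55 and 6.35 RPKM in that order. Mef2d did not pass (0.00 ± 0.12, adjusted p = 0.998). B cells also express Mef2c. The 12 B cell markers in the table summed to 504 and 562 RPKM in CD4 Treg, 1226 in the CD8 Treg library, and 2191 and 1876 in CD49lo. Most of the CD4 Treg sum was Ighm, at 444 and 521 RPKM, against 285 in CD8 Treg and 518 and 336 in CD49lo. In CD4 Treg 11 of the 12 markers, all but Ighm, were lower than in CD49lo. The part of the B cell markers in the Mef2c and Klf2 levels was not tested. Between CD8 Treg and CD49lo 0 of the B cell markers were called (3 at an unadjusted limma p under 0.05, 3 called by limma-voom). In CD8 Treg 0 of the 15 regulators were called against CD49lo (3 at an unadjusted limma p under 0.05, 1 called by limma-voom). Against CD4 Treg 3 were higher, Mef2a, Mef2c and Hdac7, and Foxo1 was lower.

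The egress and homing genes tied to KLF2 did not move with it as a block. Of 10 genes, 3 were higher and 5 lower in CD4 Treg than in CD49lo. S1pr1, the egress receptor that KLF2 activates, was at 86.2 and 97.6 RPKM in CD4 Treg, 115 in the CD8 Treg library, and 98.2 and 112 in CD49lo, and did not pass in any comparison (adjusted p = 0.339, 0.327 and 0.0591). Ccr7, the lymph node homing receptor, was higher in CD4 Treg than in CD49lo (0.75 ± 0.16, adjusted p = 0.00796).

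Il7r, the interleukin-7 receptor, was at 45.1 and 52.9 RPKM in CD4 Treg, 133 in the CD8 Treg library, and 68.8 and 66.1 in CD49lo. It was higher in CD8 Treg than in either population (adjusted p = 0.00289 against CD49lo and 0.00012 against CD4 Treg). Itgb7, an integrin chain of gut homing, was lower in CD8 Treg (119 RPKM) than in CD49lo (196 and 218) and CD4 Treg (267 and 273). Cxcr3 and Ccr3, chemokine receptors that KLF2 loss is known to raise, were both lower in CD4 Treg than in CD49lo and higher in CD8 Treg than in CD4 Treg. Cxcr3 was at 13.0 and 19.96 RPKM in CD4 Treg, 74.9 in the CD8 Treg library, and 49.99 and 39.8 in CD49lo. S1pr5, the egress receptor of NK and effector cells, was at 0.193 and 0 RPKM in CD4 Treg, 3.36 in the CD8 Treg library, and 15.1 and 57.6 in CD49lo. The 5 genes listed as NK cell markers summed to 0.841 and 1.47, 191, and 115 and 287 RPKM in that order. Klrd1 made up most of this sum outside CD4 Treg (117 RPKM in CD8 Treg, 81.9 and 157 in CD49lo). Which cells carried these transcripts was not tested, nor was their part in the S1pr5 level.

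Klf6 (ENSMUSG00000000078, chromosome 13, 5861489 to 5870393, plus strand), an early gene of stress and injury, was not called. It was at 35.7 and 37.2 RPKM in CD4 Treg, 25 in the CD8 Treg library, and 26.9 and 34.8 in CD49lo. CD4 Treg was highest, and the gap between the CD49lo libraries was wider than that between the means of CD4 Treg and CD49lo (0.33 against 0.27 on the log2 scale). The fold change of CD8 Treg over CD4 Treg was -0.43 (95% interval -0.80 to -0.05, adjusted p = 0.125). Klf7 (ENSMUSG00000025959, chromosome 1, 64029447 to 64122282, minus strand), an activator best known from neurons, was at 7.47 and 5.80 RPKM in CD4 Treg, 5.16 in the CD8 Treg library, and 6.37 and 4.51 in CD49lo. Its replicates differed by 0.35 and 0.48 on the log2 scale, more than any pair of populations did, and it passed in no comparison (adjusted p at least 0.358).

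Several Krüppel-like factors are themselves immediate early genes, so the immediate early and stress list was set beside them. Of 21 such genes, 14 were higher and 2 lower in CD4 Treg than in CD49lo, with a median log2 fold change of 0.97 (all genes -0.03). They summed to 1434 and 1404 RPKM in CD4 Treg, 566 in the CD8 Treg library, and 609 and 629 in CD49lo. Jun was at 114 and 101 RPKM in CD4 Treg and 10.5 to 15.2 elsewhere. Dusp1, a phosphatase gene of the same response, was at 73 and 66.8 against 5.13 to 7.61. Against CD49lo, Klf2 and Klf4 were lower in CD4 Treg, genes of this list were mostly higher, and Klf6 and Klf10 were not called. Any link between this list and the members was not tested. Between CD8 Treg and CD49lo 0 genes of this list were higher and 1 was lower by limma (3 at an unadjusted p under 0.05 in either direction, 0 called by limma-voom), Nr4a1 (8.65 RPKM against 17.6 and 20.3).

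Among the CtBP-binding members, Klf3 was abundant and nearly level. Klf3 (ENSMUSG00000029178, chromosome 5, 64803523 to 64830129, plus strand), a repressor that can oppose activating family members, was at 63.6 and 69.9 RPKM in CD4 Treg, 74.9 in the CD8 Treg library, and 73.3 and 82.3 in CD49lo. It had the narrowest range over the 5 libraries of the 8 members, 0.34 on the log2 scale. The log2 fold change was -0.19 in CD4 Treg over CD49lo (95% interval -0.45 to 0.07, adjusted p = 0.284). It was 0.08 in CD8 Treg over CD49lo (interval -0.24 to 0.40, adjusted p = 0.814; -0.05 without a scaling factor). An antisense-strand gene, Gm20033, overlaps its start and held 8 to 26 reads, against 880 to 1417 for Klf3.

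Klf12 (ENSMUSG00000072294, chromosome 14, 99874486 to 100149764, minus strand), known as a repressor of the AP-2alpha gene, was close to the limit of detection. It held 2 and 3 reads in CD4 Treg, 1 read in the CD8 Treg library, and 10 and 13 in CD49lo, or 0.174 and 0.297, 0.0887, and 0.645 and 1.07 RPKM. CD49lo was highest, and the gene passed the filter only through that population. The 95% Poisson interval in CD8 Treg was 0.00225 to 0.494 RPKM, which reaches the intervals of all other libraries except CD49lo replicate 2. It was not called (adjusted p = 0.234, 0.313 and 0.775).

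Of the CtBP corepressor genes, Ctbp1 was at 70.3 to 86.6 RPKM and Ctbp2 at 0 to 1.18. Sin3a was at 28 to 33.7 RPKM and Sin3b at 25.9 to 35.9, and none of these 4 genes was called in any comparison. Of the 11 corepressor and coactivator genes, 2 were higher and 1 lower in CD4 Treg than in CD49lo. The higher genes were the acetyltransferases Kat2b (21 and 18.7 RPKM against 12.4 and 11.2) and Crebbp, and the lower gene was the Sin3 complex gene Sap30 (7.25 and 9.83 against 31 and 35.8). Between CD8 Treg and CD49lo 0 of these 11 were called (2 at an unadjusted limma p under 0.05, 0 by limma-voom).

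Klf13 (ENSMUSG00000052040, chromosome 7, 63886347 to 63938915, minus strand), a late factor of T cell activation known to drive Ccl5, was the 1 member that was higher in CD4 Treg than in CD49lo. It was at 67.5 and 63.1 RPKM in CD4 Treg, 49.9 in the CD8 Treg library, and 52.4 and 49.8 in CD49lo. Both CD4 Treg libraries stood above the other 3, which lay close together. The log2 fold change over CD49lo was 0.38 ± 0.10 (SE, limma, adjusted p = 0.0259), a ratio of 1.3 on the fitted scale. The call was lost without a filter (adjusted p = 0.114) and with the variance prior on mean RPKM (adjusted p = 0.061). CD8 Treg did not pass against CD4 Treg (-0.28, 95% interval -0.56 to 0.00, adjusted p = 0.174) or against CD49lo (0.10, interval -0.18 to 0.38, adjusted p = 0.727; -0.03 without a scaling factor). Genes overlapping Klf13 on the other strand held at most 4 reads.

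Klf2 and Klf13 moved in opposite directions in CD4 Treg, so their ratio within a library, which no scaling factor touches, was computed after their values had been seen. The log2 ratio of Klf2 to Klf13 was 1.65 and 1.86 in CD4 Treg, 2.33 in the CD8 Treg library, and 2.38 and 2.66 in CD49lo. CD4 Treg was lowest, which follows from how the pair was chosen, and CD8 Treg lay next to the lower CD49lo library. The log2 ratio of Klf2 to Klf3 was 1.74 and 1.71, 1.74, and 1.89 and 1.93 in the same order, a narrower span.

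Klf10 (ENSMUSG00000037465, chromosome 15, 38294413 to 38300707, minus strand), the TGF-beta inducible early gene, was lowest in CD8 Treg. It was at 9.58 and 11.7 RPKM in CD4 Treg, 6.27 in the CD8 Treg library (116 reads), and 11.6 and 12.1 in CD49lo. The CD8 Treg library lay below all 4 others, and CD4 Treg overlapped CD49lo. The log2 fold change of CD8 Treg was -0.74 over CD49lo (95% interval -1.26 to -0.22, adjusted p = 0.112) and -0.61 over CD4 Treg (interval -1.13 to -0.09, adjusted p = 0.109), neither of which passed. CD4 Treg over CD49lo was -0.13 (interval -0.55 to 0.30, adjusted p = 0.687).

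Of 11 genes of the TGF-beta pathway that induces Klf10, 5 were higher in CD4 Treg than in CD49lo, 0 were lower and 6 were not called (median log2 fold change 0.12, all genes -0.03). The receptor Tgfbr1 was at 21.8 and 24.3 RPKM in CD4 Treg, 8.44 in the CD8 Treg library, and 8.71 and 7.38 in CD49lo. Ski and Skil, corepressors of SMAD proteins, and the ligand Tgfb1 were also higher in CD4 Treg. Smad7, the inhibitory SMAD that KLF10 is known to repress, was at 52.5 and 52.9 RPKM in CD4 Treg, 40.9 in the CD8 Treg library, and 28 and 28.9 in CD49lo. It was higher than in CD49lo in both regulatory populations (0.90 ± 0.11, adjusted p = 0.000309 in CD4 Treg, and 0.65 ± 0.13, adjusted p = 0.0232 in CD8 Treg). Smad7 was the 1 gene of this list that was called between CD8 Treg and CD49lo.

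Of 12 quiescence and cell cycle brake genes, the class KLF2 and KLF4 belong to, 6 were higher in CD4 Treg than in CD49lo, 1 was lower and 5 were not called (median 0.34, all genes -0.03). Btg1, an antiproliferative gene, was at 238 and 243 RPKM in CD4 Treg, 119 in the CD8 Treg library, and 128 and 136 in CD49lo. Cdkn1b, which encodes the inhibitor p27, was at 67.3 and 67, 34.3, and 38.9 and 46.8 RPKM in that order. Cdkn1a, the p21 gene that KLF4 activates, was at 0.253 to 2.07 RPKM in the 5 libraries and was not called. In CD8 Treg 0 of the 12 passed against CD49lo (3 at an unadjusted limma p under 0.05, 0 by limma-voom) and 5 were lower than in CD4 Treg.

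Of the other Klf genes in the table, Klf5, Klf14 and Klf17 were at 0 reads in all libraries. Klf16 was at 8.56 to 13.4 RPKM, Klf9 at 1.91 to 5.19 and Klf11 at 1.78 to 3.26, and none of the 3 was called. Klf1, the erythroid factor, was at 0 in all libraries but CD49lo replicate 1 (0.234 RPKM). Among the Sp genes, the relatives that bind the same GC boxes, Sp1 (26.97 to 32.9 RPKM), Sp2 (19.3 to 25.1) and Sp4 (15.9 to 19.0) were not called. Sp3 was at 57.7 and 69.9 RPKM in CD4 Treg, 38.1 in the CD8 Treg library, and 42.4 and 45 in CD49lo (0.56 ± 0.12 in CD4 Treg over CD49lo, adjusted p = 0.00914). Sp6 was at 27.6 and 24.2 RPKM in CD4 Treg, 0.273 in the CD8 Treg library, and 1.19 and 0.0421 in CD49lo (4.78 ± 0.50, adjusted p = 0.000157). Among the tested Klf and Sp genes Sp6 had the largest log2 fold change between CD4 Treg and CD49lo. The antisense gene Gm11532, which overlaps Sp6, held 11 and 19 reads in CD4 Treg and 1 in each other library, against 621 and 476 for Sp6 in CD4 Treg.

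Among tested protein-coding genes with an established name, those with the pattern most like each called member were found by the root mean square difference of their centred log2 values over the 5 libraries. For Klf2 they were Krtcap2, Adamts10 and Trim5 (0.03 to 0.04 log2 units). For Klf13 they were Zfp646, Zmiz2 and Tnfrsf14 (0.03 each). For Klf4 they were S100a4, Bik and Hist3h2ba, at a looser 0.21 to 0.22. S100a4, a calcium-binding protein gene, was at 69 and 53.5 RPKM in CD4 Treg, 15.5 in the CD8 Treg library, and 133 and 146 in CD49lo, so it shared the order CD49lo, CD4 Treg, CD8 Treg with Klf4. With 5 libraries in 3 populations many genes share a pattern, and likeness carries no test.

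**Figure D5:**
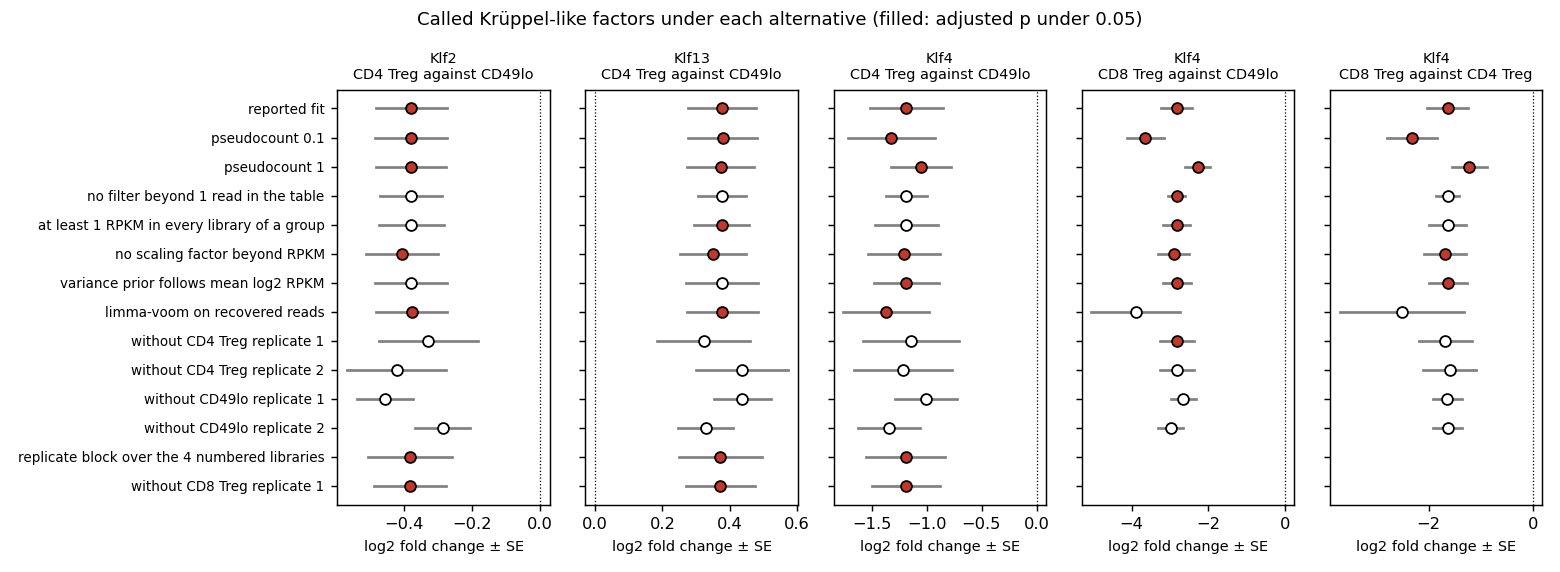
Log2 fold change ± SE of the called members under the reported fit and each alternative, filled where the adjusted p was under 0.05. All points for Klf2 and Klf4 lie below 0 and all for Klf13 above 0, while the calls are lost under several settings.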

How the data were processed

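The authors deposited 1 table in RPKM, a unit that corrects reads for gene length and depth. CASAVA, STAR and mm10 are listed per the submitters' processing notes, and the counter and versions are not given in the sources used here. Each RPKM value times gene length was a whole multiple of 1 step per library (100% of values, tolerance 0.02 reads), which returned the reads. All 5 sample columns were used. Gene lengths, deposited by the authors in bases, served for this step and were set beside annotated exon lengths.

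RPKM were divided by trimmed mean of M values factors (0.935 to 1.04) and log2(RPKM + 0.5) was fitted with limma 3.58.1 (R 4.3.3) over 3 groups with 2 residual degrees of freedom. The variance prior followed mean log2 depth-scaled reads. A gene was kept with 15 reads in total and, in 1 library or more, 10 reads once scaled to median depth. P-values are two-sided. The code was tested on simulated data. Members, the 14 lists and tests were chosen with earlier results of these data known. All members, up to 6 called genes per list by smallest p, up to 3 for other cell types, and the 3 nearest patterns were to be named; further list genes are named by their role and were chosen after their values were seen. Alternatives changed the pseudocount, filter, scaling, prior, method and libraries. Some genes of the lists are counted but not reported here by name.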

Additional observations from a re-analysis of the deposited data

How the results depend on the processing

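Without a filter, 0 members were called between CD4 Treg and CD49lo and 0 between CD8 Treg and CD4 Treg (3 and 2 at an unadjusted limma p under 0.05), and the genes called fell to 704 and 1277. Requiring 1 RPKM in each library of a population, 1 and 0 of the 7 members tested were called (3 and 3 at an unadjusted limma p under 0.05). Of 12306 genes tested, 2332 and 1672 were called there. Between CD8 Treg and CD49lo this filter called 1 member and 355 genes. With the prior on mean RPKM, 1 member and 2491 genes were called between CD4 Treg and CD49lo, and 1 member and 366 genes between CD8 Treg and CD49lo. By limma-voom 0 members were called in either CD8 Treg comparison (2 against CD49lo and 3 against CD4 Treg at unadjusted p). Of the 13298 genes tested, limma-voom called 689 against CD49lo and 1817 against CD4 Treg, so 0 of 8 members is little evidence about the members. Without 1 library, members called ranged from 0 to 0 (CD4 Treg against CD49lo; 0 to 3 counting the fit without CD8 Treg), 0 to 1 (CD8 Treg against CD49lo) and 0 to 0. Genes called ranged from 437 to 3151, 0 to 199 and 155 to 967 in that order, against 2964, 705 and 2241. The 0 was without CD49lo replicate 1 (2209 at an unadjusted limma p under 0.05). Causes were not tested.

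Dropping the scaling factor moved the median of all genes by -0.13 (CD8 Treg against CD49lo) and -0.10 (against CD4 Treg), and the share of calls higher in CD8 Treg from 32.3% to 20.6% and 50.5% to 40.9%. It turned uncalled signs in CD8 Treg against CD49lo for Klf3 (-0.0527), Klf7 (-0.0532) and Klf13 (-0.0339). Without CD49lo replicate 2, Klf2, Klf6 and Klf7 turned there; over the libraries left out they ranged from -0.17 to 0.000116, -0.317 to 0.00972 and -0.175 to 0.314. Without CD4 Treg replicate 1, Klf10 turned in CD4 Treg against CD49lo (range -0.253 to 0.00728). In the comparisons where they were called, Klf2, Klf4 and Klf13 kept their sign under every alternative run.

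CD4 Treg and CD49lo libraries of equal replicate number shared no visible deviation (correlation of deviations -0.02 over 13298 genes). With 2 libraries in each population this cannot show whether they were paired. With the replicate block, 3 members and 3577 genes were called between CD4 Treg and CD49lo. No paired analysis was possible because CD8 Treg has 1 library, for its comparisons.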
